A study of Mus musculus with 46 samples.

Results

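Collagen chain genes were examined as a family in 46 hand-picked mouse cochlear cells. Every gene whose symbol has the form Col, number, a, number was taken, which gave 44 of the 29871 genes measured. By the architecture of the protein they make, 11 belong to fibril types, 9 to network types, 6 to the beaded type VI, 9 to fibril-associated types and 9 to other types (transmembrane, multiplexin, anchoring and minor forms). On the scale of reads per 1000000 reads (CPM), 14 chains had a mean of at least 100 CPM over the 46 cells, and 30 had less. All cells came from the cochlea of C57BL/6 mice at postnatal day 10 with the genotype Dio2creERt2:Ai6, heterozygous for the Dio2 allele per the labels, and every sample carries the same group label. In this genotype a Cre recombinase whose activity depends on tamoxifen is made from Dio2, the type 2 deiodinase gene, and the Ai6 reporter then turns cells green. The green colour is kept by descendants of a recombined cell, so it does not require Dio2 RNA at the time of picking. The labels give no tamoxifen schedule and no animal for any cell. Cells were therefore not tested against each other as replicates, the 46 count as 1 sample, and standard deviations (SD) describe the spread between cells only.

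Collagens are secreted as triple helices of 3 alpha chains, and the chains that can join are fixed by the type. Fibril collagens (types I, II, III, V and XI) pack into the cross-striated fibres of bone, skin and cartilage, and types V and XI are minor partners that nucleate the fibres and limit their width. Type IX coats type II fibrils in cartilage, type IV builds the sheets of basement membranes, type VIII builds hexagonal lattices, and type VI forms beaded filaments around cells. Bone fibrils are built mainly of type I, made of Col1a1 and Col1a2 products, while the otic capsule passes through a cartilage stage rich in types II, IX and XI. Fibrocytes of the spiral ligament and limbus are the connective tissue cells of the cochlea, and type II collagen is a known part of their matrix.

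The cells were described in 4 classes set by marker RNAs, and no cell met more than 1 limit. Ibsp, the gene of bone sialoprotein, was at 1000 CPM or more in 12 cells, Otos, the gene of the fibrocyte protein otospiralin, in 9 cells, and the complement gene C1qb was at 500 CPM or more in 4 cells. The remaining 21 cells met no limit. The limits lay in wide gaps: Ibsp was 7618 CPM in the lowest cell inside and 107 CPM in the highest cell outside, Otos 1213 and 112 CPM, and C1qb 3048 and 148 CPM. These are the marker values that chose the classes. The classes follow the numbering of the cells, with Ibsp cells numbered 1 to 12, Otos cells between 23 and 32 and C1qb cells 43 to 46, and whether the numbering marks a picking or library batch is not given. Of the osteoblast markers 9 of 9 were present in at least 50% of Ibsp cells, of the fibrocyte markers 7 of 8 in Otos cells, and of the macrophage markers 7 of 7 in C1qb cells. Each count includes the gene that set the class, Ibsp, Otos or C1qb. Fibrocyte markers were not limited to Otos cells. At least 3 of the 8 were present in 6 of 12 Ibsp, 17 of 21 remaining and 1 of 4 C1qb cells. Reads in the listed genes ran from 2522853 to 10350249 per cell.

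At least low reads of the 14 abundant chains were found in every cell, except for Col5a2 (45 of 46 cells) and Col6a2 (40 of 46). Presence was therefore given a limit. In the C1qb cells, which carry macrophage markers, the median of the 14 abundant chains was between 0.283% and 0.469% of each chain's own mean over the 46 cells. A chain was counted as present in a cell at 10 CPM or more and at 1% or more of its own mean. By this rule 36 of 44 chains were present in at least 1 cell. Col10a1, Col4a6, Col6a4 and Col6a5 had a read in 0 of 46 cells. For counting error alone this allows a share of up to 6.52% of cells with a read. That limit is an approximation, not the exact interval used elsewhere, and says nothing of cells that use the gene below detection. Reads of Col6a6, Col28a1, Col7a1 and Col18a1 were found but never reached the limit. A cell held a median of 13 chains, from 0 in C1qb cells 44 and 46 to 23 in cell 21.

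Upstream sequence is shown for 5 chains whose levels separate or join the classes, to set letters beside the values that follow. Each is the 150 bases before the RefSeq start of the gene (assembly GRCm38.p6), written 5′ to 3′ on the strand of the gene, for windows that overlap no exon of the GENCODE annotation. Col9a1 and Col8a1 were high in Otos cells and in many remaining cells, Col3a1 was high in remaining cells, Col5a1 in Ibsp cells, and Col11a2 in 3 classes. Capitals mark TATAAA, the letters of a TATA box, and GGGCGG, those of a GC box, on either strand. Read from the other strand the GC box appears as CCGCCC.
Col9a1, chr1:24177460-24177609, plus strand: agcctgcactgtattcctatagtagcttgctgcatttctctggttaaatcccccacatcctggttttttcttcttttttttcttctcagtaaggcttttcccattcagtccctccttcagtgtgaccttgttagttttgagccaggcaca
Col8a1, chr16:57754738-57754887, minus strand: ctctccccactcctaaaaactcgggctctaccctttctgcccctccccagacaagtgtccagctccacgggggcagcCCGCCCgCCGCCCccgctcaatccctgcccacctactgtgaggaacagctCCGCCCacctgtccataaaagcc
Col3a1, chr1:45311388-45311537, plus strand: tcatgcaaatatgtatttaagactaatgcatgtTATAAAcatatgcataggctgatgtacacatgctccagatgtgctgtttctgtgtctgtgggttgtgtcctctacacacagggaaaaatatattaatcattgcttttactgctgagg
Col5a1, chr2:27886275-27886424, plus strand: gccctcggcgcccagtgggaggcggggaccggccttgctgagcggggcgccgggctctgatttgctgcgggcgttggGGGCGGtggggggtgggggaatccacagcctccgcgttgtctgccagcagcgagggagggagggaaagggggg
Col11a2, chr17:34038988-34039137, plus strand: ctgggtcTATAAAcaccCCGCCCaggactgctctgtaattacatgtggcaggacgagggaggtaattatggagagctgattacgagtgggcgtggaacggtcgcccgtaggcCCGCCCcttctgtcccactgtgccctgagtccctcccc
RefSeq entries were matched for 35 of the 44 chains, some with more than 1 start. Over the 38 chain windows that could be searched, TATAAA was found on either strand in 4, GGGCGG in 19, CCAAT (bound by NF-Y) in 8 and ACAAT, a core recognised by SOX factors, in 1. Over all 32851 windows of the same length in the table the shares were 7.57%, 28.6%, 24.5% and 17.4%. A match describes letters in the window and is no evidence of a bound factor. The Col9a1 window printed here holds none of these letter strings, and a second Col9a1 window, at another RefSeq start, holds CCAAT.

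**Figure D1:**
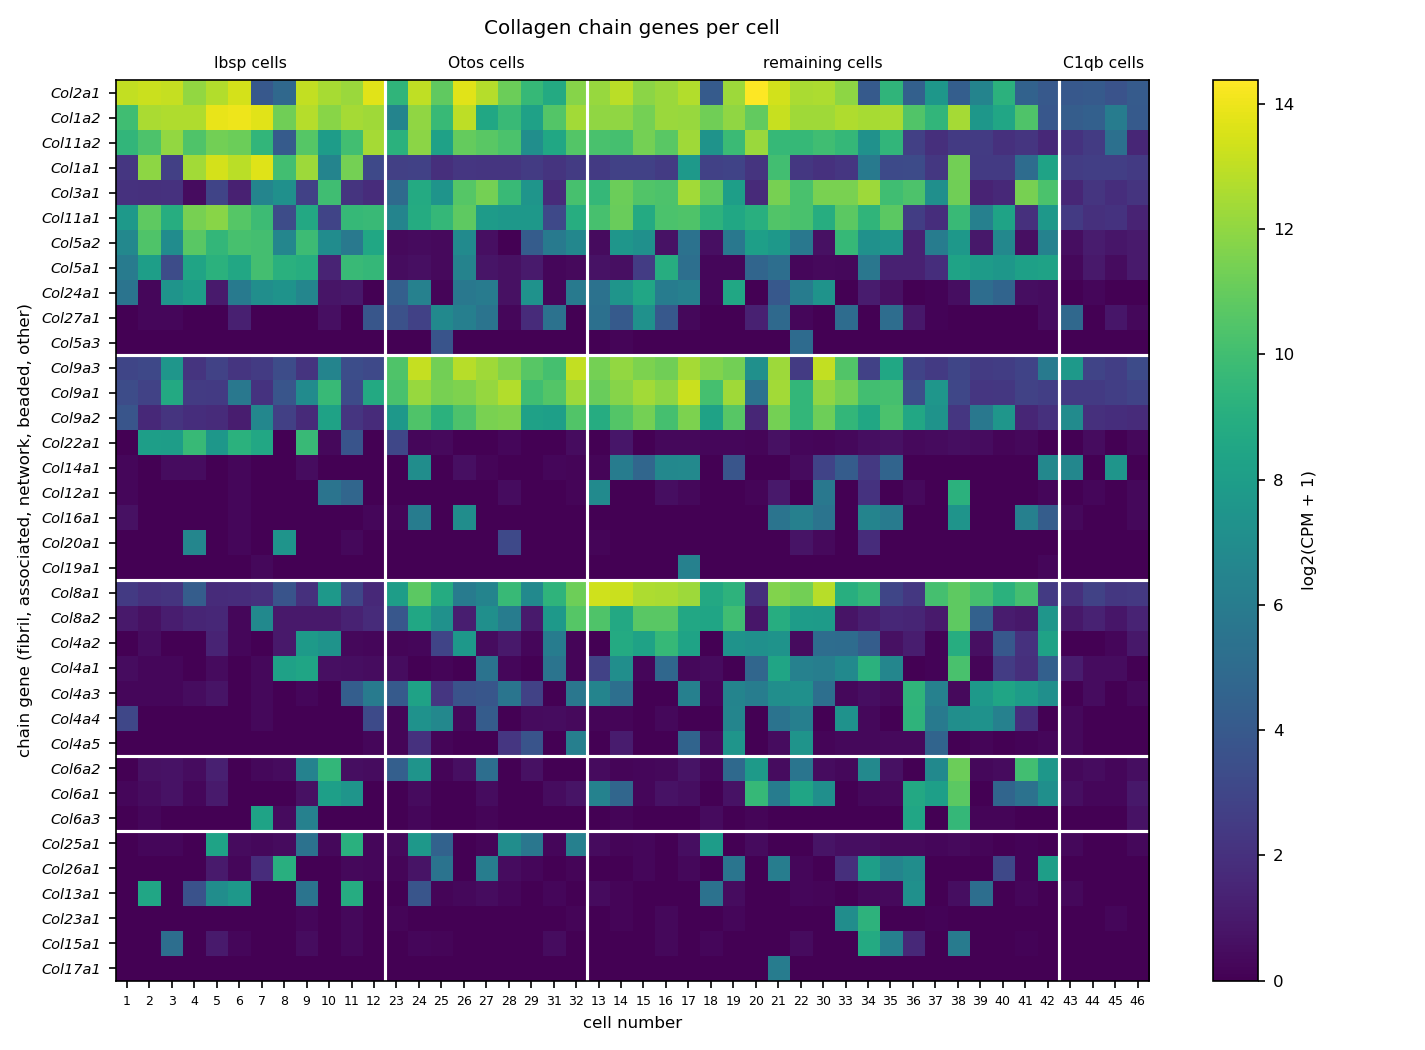
Colour shows log2(CPM + 1) of the 36 chain genes present in at least 1 cell (rows, ordered by type) in each of the 46 cells (columns, ordered by class). Type IX rows are bright in Otos cells and in many remaining cells and dark in most Ibsp cells, Col1a1 is bright in 9 of 12 Ibsp cells, and the C1qb columns are dark.

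Col1a2, which encodes the second chain of type I, was the most widespread chain and was present in 42 of 46 cells. Its level in Ibsp cells was 1018 CPM in the lowest cell, 6275 CPM at the median and 16762 CPM in the highest. Otos cells had 88.4, 851 and 7959 CPM, and the remaining cells 14.1, 4067 and 9084 CPM. In C1qb cells 43 to 46 it was 18.2, 19.95, 65.1 and 15.8 CPM. Every Ibsp and Otos cell and 20 of 21 remaining cells held it, and the classes other than the C1qb cells overlapped widely.

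Col1a1, which encodes the major chain of type I, did not follow its partner. In Ibsp cells it ran from 3.76 CPM through a median of 3233 to 12801 CPM. No Otos cell exceeded 5.91 CPM (lowest 2.78, median 3.93), and the C1qb cells had 4.89, 5.23, 5.45 and 4.54 CPM. In the remaining cells the lowest was 3.22, the median 5.79 and the highest 2498 CPM, with 6 of 21 cells present. Col1a2 was thus present without Col1a1 in 28 of 46 cells (60.9%, exact 95% interval 45.4% to 74.9%, counting error only). These were 3 of 12 Ibsp cells, 9 of 9 Otos cells, 15 of 21 remaining cells and 1 of 4 C1qb cells. The reverse, Col1a1 without Col1a2, was seen in cell 42 alone, with Col1a1 at 329 CPM and Col1a2 at 14.1 CPM. In the 14 cells that held both, the ratio of Col1a1 to Col1a2 per kilobase of transcript had a median of 0.406 and ran from 0.00933 to 0.836, so Col1a2 was the higher per length in all 14.

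The 3 Ibsp cells without Col1a1 were cells 1, 3 and 12, at 3.76, 5.58 and 7.99 CPM. Their Ibsp levels were 11169.7, 56554 and 32061 CPM, inside the range of the other Ibsp cells, and each still held Col1a2 and Col5a2. Coch, the cochlin gene and a fibrocyte marker, was at 34506, 30509 and 32569 CPM in these 3 cells, above all 9 other Ibsp cells, of which the highest was cell 8 at 20798 CPM. This was noticed after the values were seen, and any part of it in the result was not tested.

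Col2a1, the only chain of type II, was present in 34 of 46 cells and was not limited to Otos cells. Ibsp cells had 14.4 CPM in the lowest cell, 7657 at the median and 13551 in the highest. Otos cells had 435, 2238 and 13749 CPM, and the remaining cells 15.3, 3720.1 and 21229.8 CPM. C1qb cells had 14.4, 15.5, 11.9 and 16.4 CPM. Of the Ibsp cells 10 of 12 held it, all but cells 7 and 8 (14.4 and 28.1 CPM), and the Ibsp class had the highest median of the 4. Markers of chondrocytes were low there: 0 of 8 were present in at least 50% of Ibsp cells, 1 Ibsp cell held 3 or more, and Epyc was present in none. Hapln1, a cartilage link protein gene, was present in 3 Ibsp cells (276 CPM in cell 2, 84.9 in cell 6 and 466 in cell 7) and in no other cell. Acan, the aggrecan gene, was present in 2 Ibsp cells, 2 Otos cells and 1 remaining cell (cell 33, 194 CPM). All 8 chondrocyte markers together summed to 8.89 to 894 CPM in Ibsp cells, with a median of 141 CPM. In Otos cells their sum was 4014 to 12147 CPM, with a median of 7549 CPM. There 3 of the 8 were present in at least 50% of cells, and Matn1 and Hapln1 were present in none. The highest Col2a1 of any cell, 21229.8 CPM or 70.3% of its chain CPM, was in cell 20, a remaining cell. It held 4 of the 9 osteoblast markers: Sp7 at 704, Runx2 at 292, Dmp1 at 21979.5 and Dlx5 at 47.7 CPM. The other markers were not present there, with Ibsp at 27.7, Alpl at 3.72, Bglap at 2.26, Bglap2 at 7.44 and Ifitm5 at 0.647 CPM.

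Types I and II were found in the same cells. Col1a1 and Col2a1 were both present in 9 cells, 7 of them Ibsp cells and 2 remaining cells. Without Col1a1, Col2a1 was accompanied by Col1a2 in each of the other 25 cells that held it. The largest single chain by CPM in Ibsp cells was Col1a2 in 6 cells and Col2a1 in 6 cells. Per kilobase the class medians in Ibsp cells were 1500.1 CPM for Col2a1, 1173 for Col1a2 and 545 for Col1a1.

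Type XI is built from Col11a1, Col11a2 and a Col2a1 product, and its chains were as widespread as type II. Col11a2 was at 16.4, 1333 and 5647 CPM (lowest, median, highest) in Ibsp cells, 139, 1277 and 3817 CPM in Otos cells and 2.18, 767 and 5059 CPM in remaining cells. Col11a1 was at 6.85, 829 and 3631 CPM in Ibsp cells, 8.08, 236 and 1805 CPM in Otos cells and 2.71, 621 and 2177 CPM in remaining cells. C1qb cells had at most 4.42 CPM of Col11a1, and Col11a2 was at 3.26, 4.65, 39.2 and 1.94 CPM. All 12 Ibsp and 9 Otos cells held Col11a2, and 29 of 46 cells held Col2a1, Col11a1 and Col11a2 together. The exceptions ran both ways, since 5 cells had Col11a2 without Col2a1 (cells 7, 8, 18, 34 and 45) and 4 remaining cells had Col11a1 without Col11a2 (cells 38, 39, 40 and 42).

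Type V, the partner of type I in bone and skin fibrils, was concentrated in Ibsp cells. Col5a2 ran from 55.0 CPM through a median of 558 to 1635 CPM there, from 0 through 0.496 to 116 CPM in Otos cells, and from 0.323 through 64.6 to 806 CPM in remaining cells. Col5a1 was at 1.71, 447 and 1097 CPM in Ibsp cells, 0.184, 0.522 and 85.4 CPM in Otos cells and 0.170, 4.78 and 498 CPM in remaining cells. In the C1qb cells neither exceeded 1.16 CPM. Both chains were present together in 10 of 12 Ibsp cells, in 1 of 9 Otos cells (cell 26) and in 7 of 21 remaining cells. Col5a3, the remaining type V chain, was present in 2 cells only.

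Col3a1, the chain of type III that mixes with type I in soft connective tissue, had the opposite pattern. It was at 0.404, 3.33 and 995 CPM in Ibsp cells, 2.39, 438 and 2642 CPM in Otos cells and 1.68, 1331 and 5349 CPM in remaining cells. The C1qb cells had 1.86, 3.68, 2.63 and 3.46 CPM. Presence was seen in 3 of 12 Ibsp cells, 8 of 9 Otos cells and 18 of 21 remaining cells. Col1a1 without Col3a1 occurred in 6 cells, all in the Ibsp class, and Col3a1 without Col1a1 in 20 cells, none in the Ibsp class. Col3a1 and Col5a2 are convergent neighbours on chromosome 1 (Col3a1 at 45311538 to 45349706 on the plus strand, Col5a2 at 45374321 to 45503282 on the minus strand, GRCm38), and they lay on opposite sides of the comparison of Ibsp with remaining cells. Of the minor fibril chains, Col24a1 was present in 24 cells with a highest value of 373 CPM, and Col27a1 in 14 cells with a highest value of 151 CPM.

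**Figure D2:**
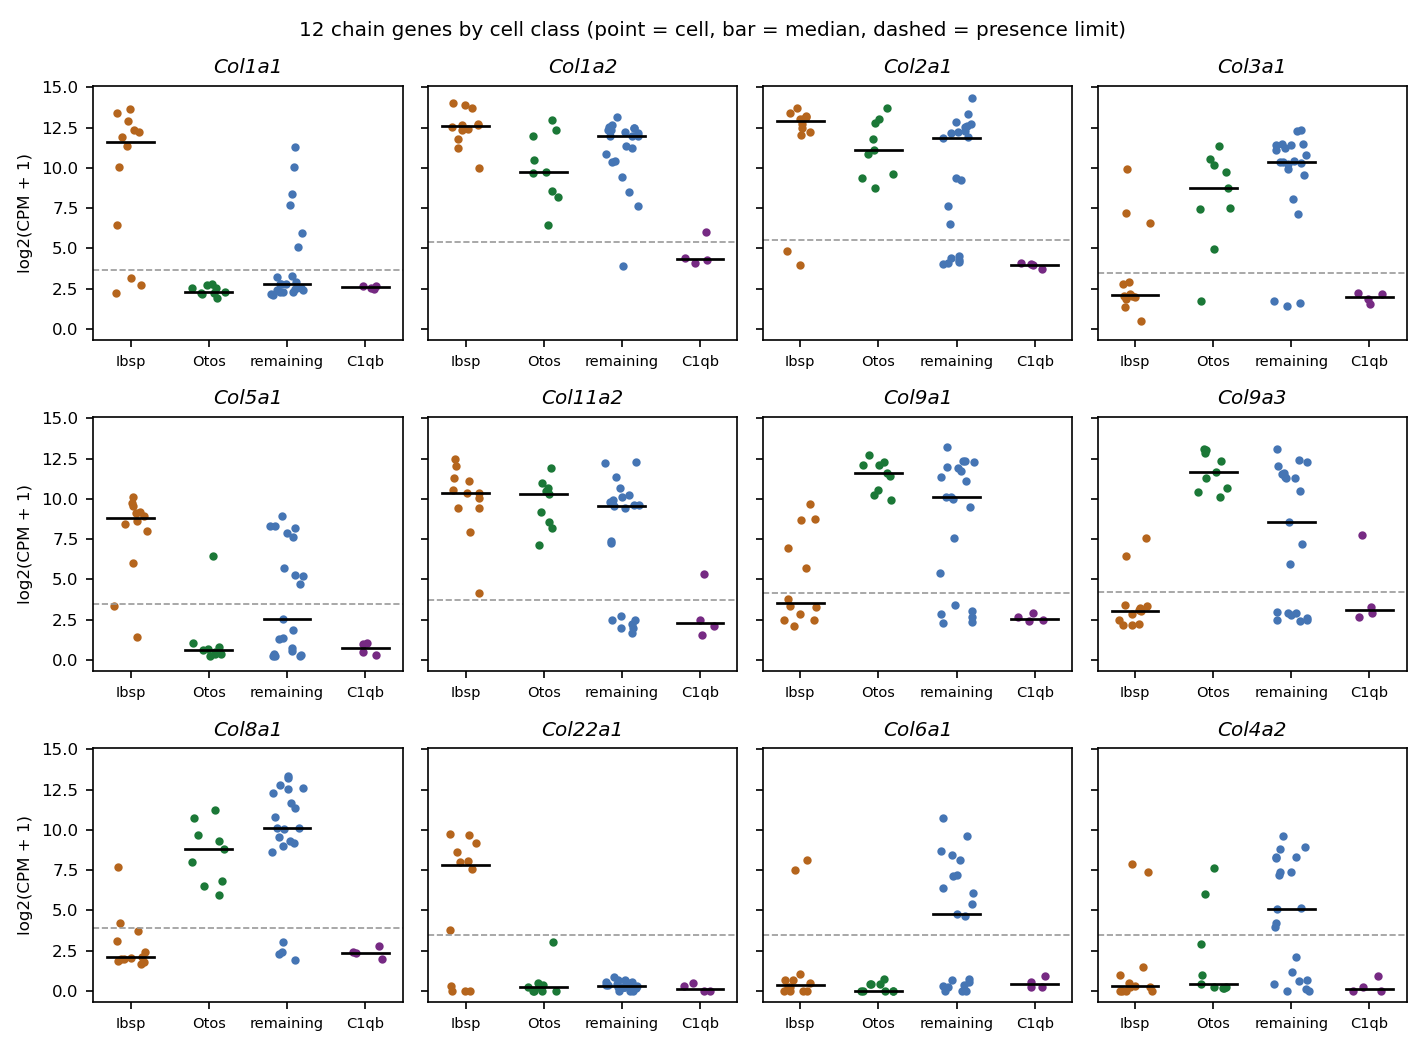
Each point is 1 cell, the bar is the class median, the y axis is log2(CPM + 1) and the dashed line is the limit of presence, for 12 chain genes in the 4 classes. Points of Col1a1 in all 9 Otos cells lie under the line, those of Col9a1 and Col9a3 in all 9 lie above it, and Col22a1 is above it in 8 Ibsp cells only.

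Type IX is a heterotrimer of Col9a1, Col9a2 and Col9a3 products, and the medians of all 3 chains were higher in Otos than in Ibsp cells. Col9a3 was at 1112, 3288 and 8829 CPM in Otos cells and at 3.44, 7.37 and 187 CPM in Ibsp cells. Col9a1 was at 988, 3097 and 6802 CPM in Otos cells and at 3.25, 10.8 and 816 CPM in Ibsp cells. For these 2 chains the lowest Otos cell lay above the highest Ibsp cell. The share of all genes that separate these small classes in this way was not counted, so the separation is not read as a trait of type IX. Col9a2 was at 202, 1304 and 3097 CPM in Otos cells and at 1.20, 3.01 and 314 CPM in Ibsp cells, where the highest Ibsp cell, cell 10, passed the lowest Otos cells.

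Remaining cells spread over both ranges of type IX. Their Col9a3 was at 4.42, 373 and 8621 CPM, their Col9a1 at 3.88, 1121 and 9586 CPM, and their Col9a2 at 1.91, 482 and 3027 CPM. All 3 chains were present in 9 of 9 Otos cells, 11 of 21 remaining cells and 1 of 12 Ibsp cells (cell 10). Type II without any type IX chain was seen in 4 cells (2, 4, 5 and 11), all Ibsp cells, and type IX without type II in 6 cells (7, 18, 34, 36, 42 and 43). In C1qb cell 43 Col9a3 was at 216 CPM and Col9a2 at 122 CPM, with the cartilage gene Lect1 at 215 CPM in the same cell, while the other 3 C1qb cells had at most 8.64 CPM of any type IX chain.

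The other fibril-associated chains were sparse. Col22a1, a chain known from tissue junctions, was present in 8 of 12 Ibsp cells and in 0 of 34 others, with 0, 223 and 859 CPM in Ibsp cells and a highest value of 7.26 CPM outside (Otos cell 23). It was accompanied by Col1a1 in 7 of the 8 cells. Col14a1, a chain of dense connective tissue, was present in 0 Ibsp cells, 1 Otos cell, 8 remaining cells and 2 C1qb cells, with a highest value of 180 CPM in C1qb cell 45. Col16a1 was present in 10 cells and Col12a1 in 5, with highest values of 171 and 598 CPM, both in cell 38. Col20a1 and Col19a1 were present in 2 and 1 cells.

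Type VIII led the network chains. Col8a1 was at 2.75, 1118 and 10322.5 CPM in remaining cells, 61.6, 457 and 2388 CPM in Otos cells, 2.20, 3.26 and 204 CPM in Ibsp cells, and 3.03, 6.01, 4.04 and 4.32 CPM in C1qb cells. Its partner Col8a2 was at 0.693, 235 and 1767 CPM in remaining cells, 1.08, 143 and 1542 CPM in Otos cells and 0.171, 1.09 and 112 CPM in Ibsp cells, and reached 1.73 CPM in C1qb cells. Both were present together in 12 remaining and 7 Otos cells and in 0 Ibsp cells. Col8a1 was the largest chain by CPM in 6 of the 21 remaining cells (13, 14, 15, 16, 37 and 39), more often than any other chain in that class.

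Type IV chains of basement membranes were low and uneven. Col4a1 and Col4a2, the chains of the common type IV trimer, start on opposite strands of chromosome 8 (11312826 and 11312805, GRCm38), and their heads overlap. They were present together in 11 cells, Col4a1 alone in 4 and Col4a2 alone in 6, and 9 of the 11 were remaining cells. Col4a3 and Col4a4 also start head to head, on chromosome 1 (82586921 and 82586849). Both were present in 9 cells, Col4a3 alone in 13 and Col4a4 alone in 3, with the highest values of both in cell 36 (683 and 663 CPM). Col4a5 was present in 6 cells. Of the 5 endothelial markers 0 cells held 3 or more, and Kdr had no read in any cell. Emcn was present in 1 of 12 Ibsp cells, 5 of 9 Otos cells and 8 of 21 remaining cells, and cell 36 had Emcn at 128 CPM and Cdh5 at 83.7 CPM. The part of these markers in the type IV values was not tested.

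Type VI is built from Col6a1, Col6a2 and a longer chain, most often the Col6a3 product. Col6a1 was present in 12 of 21 remaining cells, 2 of 12 Ibsp cells and 0 of 9 Otos cells, where it reached 0.678 CPM at most. Col6a2 was present in 13 cells: 8 of 21 remaining cells, 2 of 12 Ibsp cells and 3 of 9 Otos cells. Its lowest, median and highest values were 0, 0.402 and 2267 CPM in remaining cells and 0, 0.433 and 726 CPM in Ibsp cells. Otos cells had 0, 0.524 and 169 CPM, and the C1qb cells at most 0.432 CPM. Col6a3 was present in 4 cells. Only cell 38, a remaining cell, held all 3, at 1743, 2267 and 764 CPM, and type VI was 20.7% of its chain CPM. That cell also had Col1a1 at 2498 CPM, Col4a1 at 1227 CPM and Col8a2 at 1767 CPM, the highest of these chains among remaining cells, and Comp at 486 CPM. Apart from it and from Col6a2 in cell 41 (1023 CPM), no type VI chain passed 1000 CPM.

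Of the 9 chains of other types, 6 were present somewhere and none reached 1000 CPM. Col13a1, a transmembrane collagen, was present in 6 of 12 Ibsp cells, 1 Otos cell and 3 remaining cells, with a highest value of 476 CPM. Col25a1, also transmembrane, was present in 5 of 9 Otos cells, 3 Ibsp cells and 1 remaining cell, with a highest value of 551 CPM in Ibsp cell 11. Col26a1 was present in 9 cells, Col15a1 in 4, Col23a1 in 2 and Col17a1 in 1.

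Chains were also summed by type in each cell. All chains together took a median of 2.59% of the listed CPM in Ibsp cells (0.622% to 4.72%), 2.12% in Otos cells (0.510% to 4.28%), 2.41% in remaining cells (0.251% to 5.24%) and 0.0220% in C1qb cells (0.00833% to 0.0575%). Fibril chains made up a median of 96.5% of chain CPM in Ibsp cells (SD 6.51 points), 38.3% in Otos cells (SD 12.3) and 49.4% in remaining cells (SD 16.4). Fibril-associated chains made up 1.59%, 49.7% and 18.5%, and network chains 0.146%, 6.14% and 19.04%. The fibril share ran from 80.4% to 99.6% in Ibsp cells and from 27.6% to 69.3% in Otos cells. Dividing each chain by its coding length, which is short for type IX, lowered the fibril median in Otos cells to 24.4%. By number, Ibsp cells held a median of 10.5 chains and Otos and remaining cells 15 each.

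**Figure D3:**
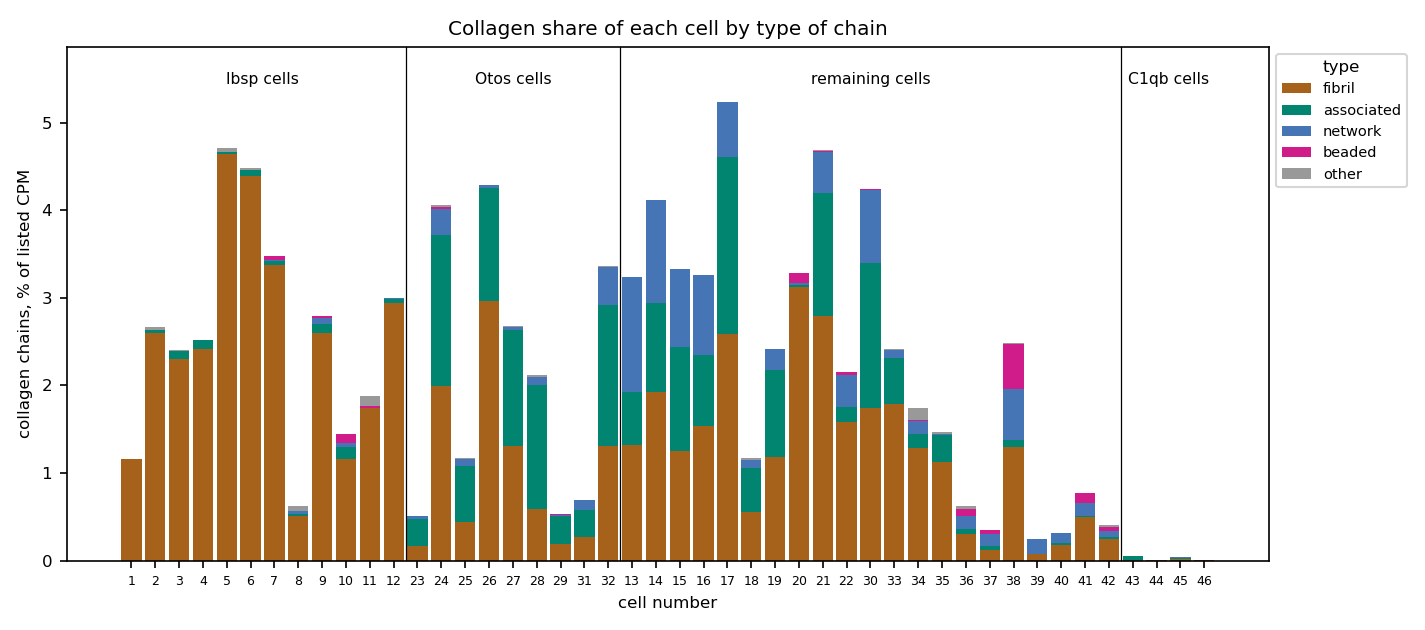
Each bar is 1 cell, its height is the summed CPM of all 44 chains as a percentage of the CPM of all listed genes, and colours split it into the 5 types. Bars of Ibsp cells are almost wholly fibril chains, those of Otos cells are mostly fibril and fibril-associated chains, network chains are visible in many remaining cells, and the 4 C1qb bars are close to 0.

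Every cell outside the C1qb class held fibril and fibril-associated chains at once. In Ibsp cells the commonest combination of types was fibril, associated and other (4 of 12 cells), and network chains were present in 7 and beaded chains in 4 of the 12. All 9 Otos cells and all 21 remaining cells also held a network chain. Beaded chains were present in 3 of 9 Otos cells and 14 of 21 remaining cells. By fibril chains alone, 6 Ibsp cells (2, 4, 5, 6, 9 and 11) held Col1a1, Col1a2, Col2a1, Col5a1, Col5a2, Col11a1 and Col11a2 together, 3 of them with Col24a1. In Otos cells 8 of 9 held Col1a2, Col2a1, Col3a1, Col11a1 and Col11a2 and no Col1a1, with cell 31 lacking Col3a1 and Col11a1. The fibril combination of the remaining cells ranged from 2 chains in cell 36 (Col1a2 and Col3a1) to 10 in cell 21.

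Differences between classes were set beside those of all genes by a rule of size. A gene passed where its mean log2(CPM + 1) differed by at least 2 and it was present in at least 50% of the cells of the higher class. Genes with 10 CPM in at least 4 cells entered, 11062 in all and 31 of the 44 chains. Those 31 are not all members, since a chain seen in few cells could not enter. The scale understates differences of low genes.

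Against remaining cells, 7 chains were higher in Ibsp cells by this rule, where 5.44% of all genes were, and 4 were higher when medians replaced means. The 7 were Col1a1 (difference of mean log2 values 5.23), Col22a1 (5.07), Col5a1 (3.91), Col5a2 (3.58), Col11a2 (2.56), Col13a1 (2.45) and Col2a1 (2.11). Col22a1 reached 10 CPM in Ibsp cells only, so it entered through the class where it is high and its passing adds no weight. Another 10 chains were lower, where 3.07% of all genes were: Col8a1 (-6.47), Col3a1 (-5.84), Col9a2 (-5.05), Col8a2 (-4.33), Col9a3 (-4.16), Col4a3 (-3.64), Col9a1 (-3.46), Col4a2 (-3.07), Col6a1 (-2.71) and Col4a1 (-2.30). Of the 7 higher chains 5 are fibril chains, and the lower ones belong to types III, IV, VI, VIII and IX. The median difference was -1.33 over the 31 chains and 0.09 over all genes. SDs of single chains within a class were large, for example 4.44 for Col1a1 and 3.35 for Col2a1 in Ibsp cells on the log2 scale, and each of the chains named here overlapped between the classes.

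Between Otos and remaining cells fewer chains passed. Higher in Otos cells were 4 chains, where 5.1% of all genes were: Col9a3 (4.07), Col9a1 (2.97), Col25a1 (2.93) and Col11a2 (2.34). Lower were 4 chains, where 2.5% of all genes were: Col6a1 (-4.06), Col4a1 (-2.62), Col4a2 (-2.55) and Col5a2 (-2.14). Of the remaining cells 5 (20, 21, 22, 38 and 42) held 3 or more of the 9 osteoblast markers with Ibsp under the limit. Without these 5 the same 4 chains were higher and 0 were lower, with Col6a1 at -2.77 but present in 7 of the other 16 remaining cells, Col4a2 at -1.99, Col4a1 at -1.72 and Col5a2 at -1.46. In the comparison of Ibsp with remaining cells, leaving out the same 5 kept the 7 higher chains, and 8 of the 10 were lower, without Col6a1 (-1.42) and Col4a1 (-1.41). For Otos cells, leaving out cells 20 and 42 alone left 2 lower, Col6a1 and Col4a2. Both choices were made after the values were seen. With a pseudocount of 10 there were 2 higher and 1 lower.

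Otos cells set directly against Ibsp cells had 8 chains higher, where 7.1% of all genes were, and 6 lower, where 7.87% were. The higher ones were Col9a3 (8.23), Col9a2 (6.74), Col9a1 (6.43), Col8a1 (5.69), Col3a1 (4.59), Col8a2 (4.37), Col27a1 (3.08) and Col4a3 (2.96). The lower ones were Col1a1 (-7.00), Col5a1 (-6.48), Col5a2 (-5.72), Col22a1 (-4.92), Col13a1 (-2.85) and Col1a2 (-2.46). Here too Col22a1 had entered only through the Ibsp cells, and its passing adds no weight. Col2a1, Col11a1 and Col11a2 were in neither list, with differences of -0.26, -0.89 and -0.22, so the fibril chains of types II and XI passed in neither direction while those of types I and V and all 3 type IX chains did. The 3 comparisons share cells and are not independent of each other.

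**Figure D4:**
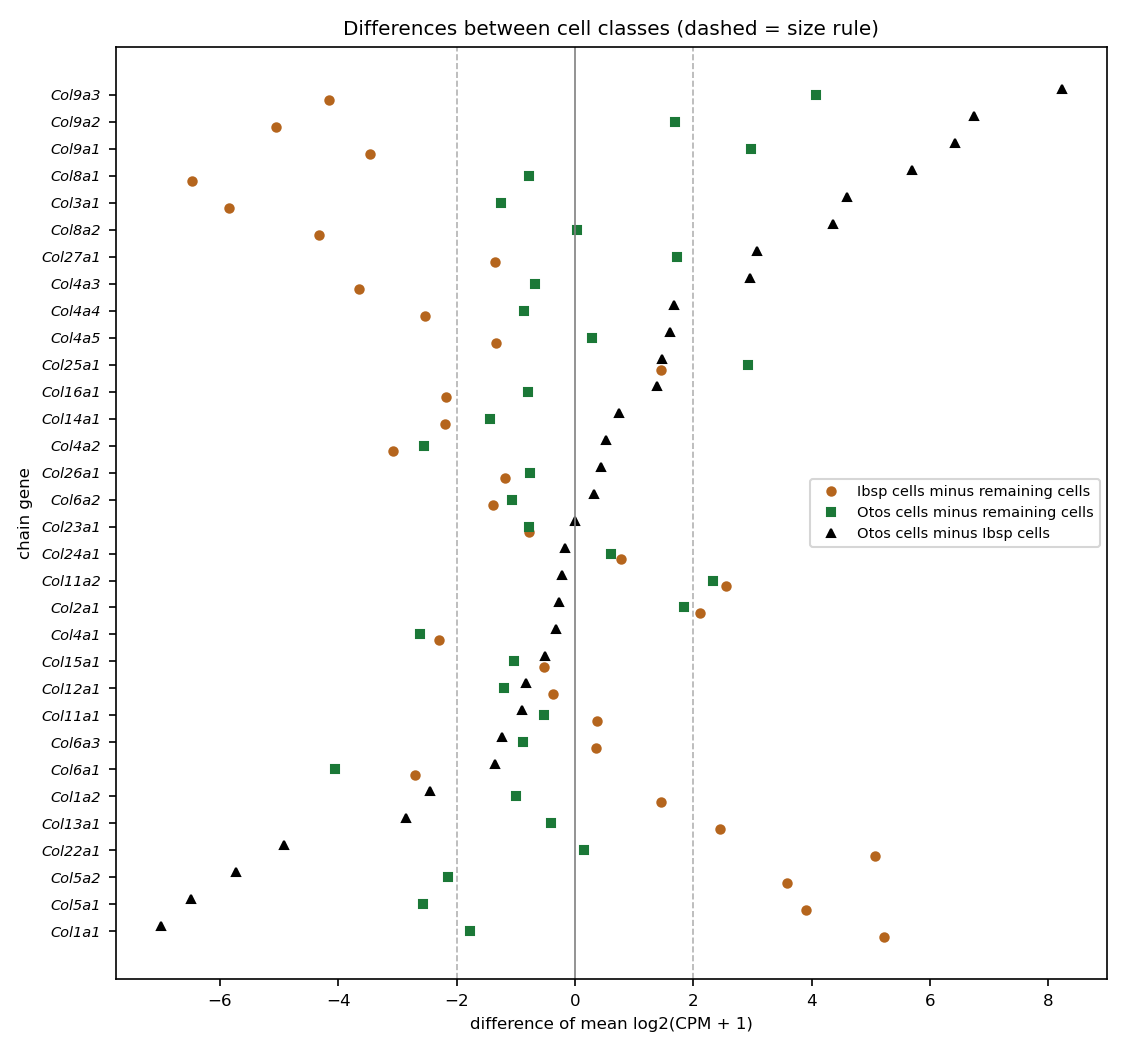
The x axis is the difference of mean log2(CPM + 1) between classes, and dashed lines mark the size rule of 2. The y axis lists chain genes with a mean of at least 10 CPM, ordered by the Otos minus Ibsp difference. Among them is Col23a1, which did not enter the size rule. Type IX and VIII chains and Col3a1 lie right of the lines for Otos minus Ibsp cells, and Col1a1, Col5a1, Col5a2 and Col22a1 lie left of them.

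In C1qb cells 14 chains were lower than in the 42 other cells, where 8.62% of all genes were, and 1 was higher, where 13.3% were. The lower ones began with Col1a2 (-6.57), Col2a1 (-6.44), Col11a1 (-6.44), Col11a2 (-5.75) and Col9a1 (-5.51). The higher one, Col14a1 (2.11), was at 98.0 and 180 CPM in cells 43 and 45 and at 0 in cells 44 and 46, and it no longer passed without cell 43 or without cell 45.

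Chains that build 1 trimer varied together from cell to cell to unequal degrees. Over the 46 cells, which share the classes above as a source of likeness, Pearson's r of log2(CPM + 1) was 0.84 for Col9a1 with Col9a3, 0.83 for Col2a1 with Col11a2, 0.80 for Col9a1 with Col9a2, 0.71 for Col11a1 with Col11a2 and 0.70 for Col8a1 with Col8a2. It was 0.51 for the type V pair, 0.49 for Col4a3 with Col4a4, 0.47 for Col4a1 with Col4a2 and 0.40 for Col1a1 with Col1a2. The type VI pairs were at 0.51 (Col6a1 with Col6a2), 0.27 (Col6a1 with Col6a3) and 0.21 (Col6a2 with Col6a3), the last being the lowest partner pair. Within classes the type I pair was at 0.66 in the 12 Ibsp cells and -0.03 in the 21 remaining cells, and the type V pair at 0.40 and -0.04. By rank (Spearman's rho) the type I pair was at 0.78 and 0.11 in these classes, and the type V pair at -0.05 and 0.08. For the type IX pairs (Col9a1 with Col9a2, Col9a1 with Col9a3, Col9a2 with Col9a3) r was 0.94, 0.78 and 0.78 in the 9 Otos cells, 0.83, 0.81 and 0.60 in the 21 remaining cells and 0.17, 0.65 and 0.37 in the 12 Ibsp cells. Without the C1qb cells the 14 partner pairs had a median r of 0.48, and 482 other pairs of chains with a mean of at least 10 CPM had a median of 0.03. The highest pair that builds no common trimer was Col1a1 with Col22a1 (0.71), and the lowest was Col9a2 with Col5a1 (-0.71). Depth and dropout of reads act on both genes of a pair and were not separated from these values.

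**Figure D5:**
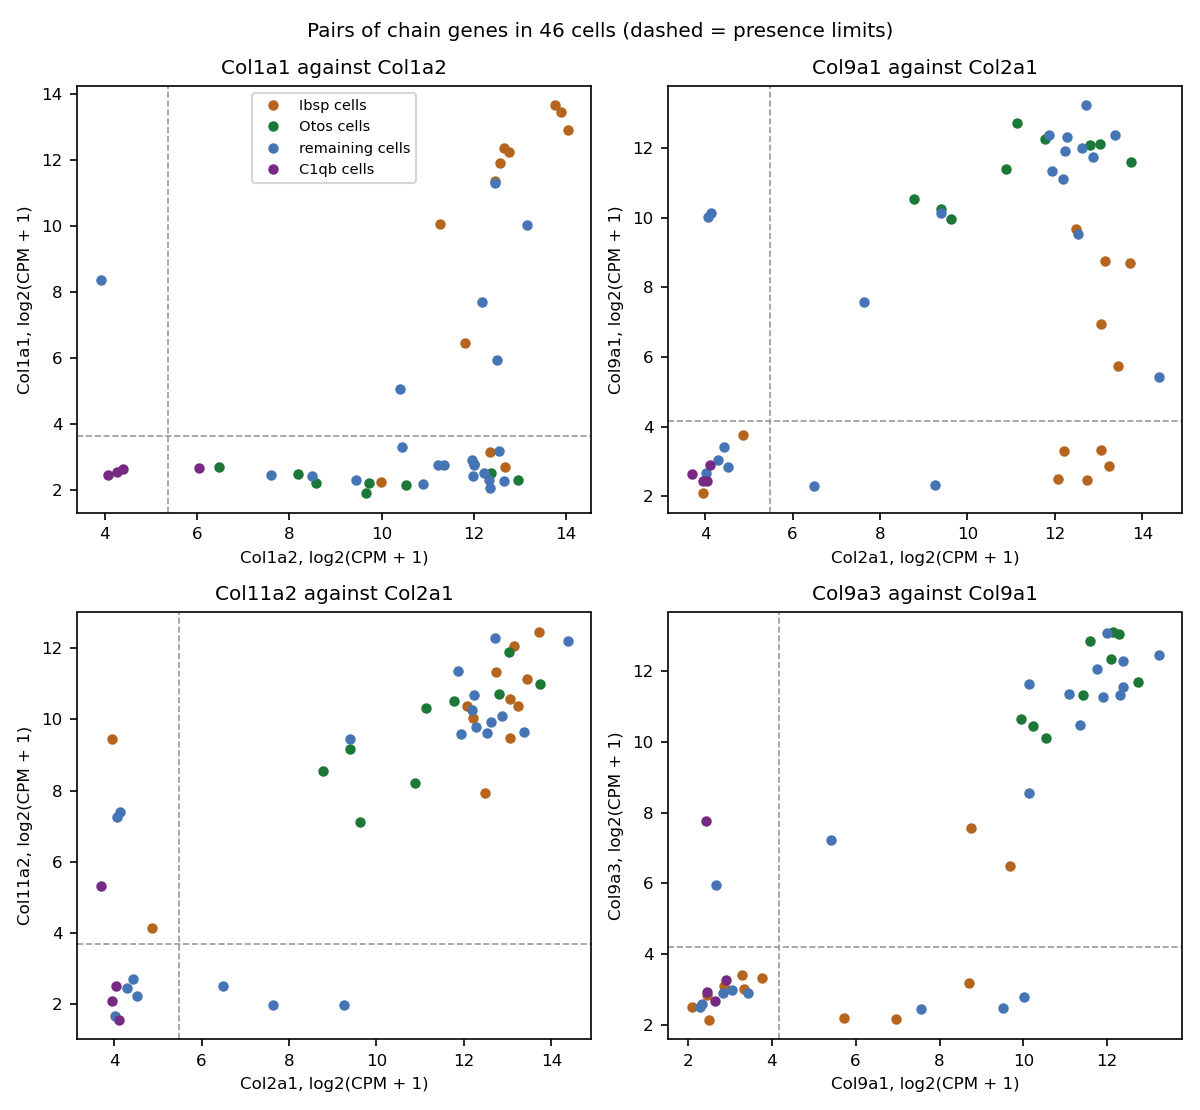
Each point is 1 cell on log2(CPM + 1) axes and dashed lines are the limits of presence, for Col1a1 against Col1a2, Col9a1 against Col2a1, Col11a2 against Col2a1 and Col9a3 against Col9a1. The Otos cells lie along the bottom of the type I panel, and 10 Ibsp cells reach high Col2a1 with low or middling Col9a1.

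Genes that fold, cut and cross-link collagen were counted by the same rule. Serpinh1, the collagen chaperone, was present in all 42 cells outside the C1qb class and in 0 of 4 C1qb cells (-7.89). Of 22 folding and processing genes that entered, 4 were higher in Ibsp than in remaining cells, where 5.44% of all genes were. Among them were Creb3l1 (3.98), a transcription factor of the secretory path, Bmp1 (3.12), the proteinase that removes the C-propeptide, and Pcolce (2.31), its enhancer. Loxl1, a cross-linking enzyme best known from elastic fibres, was lower (-5.21), where 3.07% of all genes were. In Otos against remaining cells 1 was higher (5.1% of all genes), the lysyl hydroxylase Plod1 (2.21), and 3 were lower (2.5% of all genes), the cross-linking enzyme Lox (-6.31), the telopeptide lysyl hydroxylase Plod2 (-3.47) and Pcolce (-2.77). In C1qb cells 15 of the 22 were lower and 0 higher, where 8.62% and 13.3% of all genes were.

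Transcription factors known to act on chain genes also differed between classes. Of 7 that entered, Sp7 (6.71) and Runx2 (5.49), which drive the bone programme, were higher in Ibsp than in remaining cells, and Sox9, which drives Col2a1 and Col9a1 in cartilage, was lower (-3.40). Of all genes 5.44% were higher and 3.07% lower in that comparison. Sox9 was present in 4 of 12 Ibsp cells, against 10 of 12 for Col2a1, and in 9 of 9 Otos cells. Of 13 collagen-binding matrix genes, Fn1 (5.33) and Thbs1 (3.59) were higher and the small proteoglycan Ogn (-7.37) lower in Ibsp than in remaining cells, against the same shares of all genes. Among 6 collagen receptors none passed in that comparison, and Ddr2, a receptor tyrosine kinase for fibrillar collagen, was lower in Otos than in remaining cells (-2.31), where 2.5% of all genes were.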

How the data were processed

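Full-length cDNA libraries of single cells were made with SMART-Seq v4 and ThruPLEX, per the labels' protocols. The submitters' processing notes name STAR 2.7.3a, bcl2fastq 2 and GRCm38 (mm10). How reads were counted per gene, and on which annotation or strand, is not stated in the labels, so reads of a chain gene and of a gene overlapping it on the other strand cannot be told apart. The values are CPM as deposited by the authors in 1 table of 29871 genes and 46 cells. Dividing by the CPM of 1 read in each cell gave whole reads, within 0.01 read, for 100% of the values above 0. With 1 labelled group and no named animal there was no second sample for a count test on those reads. Reads carry no molecular identifiers, and intervals (Clopper-Pearson, 95%) cover counting error only.

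Cell classes, presence and the size rule (on log2 of CPM plus a pseudocount of 1) are as defined beside the results. Members with a mean of at least 100 CPM were described with values, the others by counts and their highest cell. In each list up to 4 members with the largest difference were named. Serpinh1 was the largest of its list in C1qb cells. Coding and transcript lengths and gene positions came from GENCODE release 21 (longest coding transcript, 44 of 44 chains matched), upstream sequence from a RefSeq table. Of 27 folding and processing symbols 25 matched. The members, classes, lists and rules were chosen with earlier results of these data known. Python 3.11.15, numpy 2.4.6, pandas 2.3.3, scipy 1.17.1 and matplotlib 3.10.9 were used.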

Additional observations from a re-analysis of the deposited data

How the results depend on the processing

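Counts of chains past the size rule were recomputed with a pseudocount of 10, without the filter on low values, with medians, with class limits raised or lowered by a factor of 3, with CPM rescaled to genes other than chains, and without each cell of the smaller class. With medians, 4 chains were higher in Ibsp than in remaining cells. With a pseudocount of 10, 2 were higher and 1 lower in Otos than in remaining cells, and 0 were higher in C1qb cells. In alternatives chosen after seeing the data, 2 were lower in Otos than in remaining cells without cells 20 and 42, and 0 without the 5 remaining cells that held 3 or more osteoblast markers. The other count settings stayed within 1.5 times. Leaving out 1 cell at a time gave 5 to 7 higher and 10 lower for Ibsp against remaining cells, 4 to 5 and 3 to 4 for Otos against remaining cells, 8 and 6 for Otos against Ibsp cells, and 0 to 1 and 14 for C1qb cells. Of 836 recomputed differences of single chains 2 moved by more than the SD within classes and 0 changed sign. These cover only the 54 chain differences that passed the size rule, which were far from 0 at the outset.

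Presence at 1 CPM gave a median of 18 chains per cell, Col1a2 without Col1a1 in 0 cells, Col1a1 with Col2a1 in 46, all 3 type IX chains in 46 and Col1a1 in 9 Otos cells. At 100 CPM or at 5% of the mean (the latter also chosen after seeing the data for the combinations) these counts stayed within 1.5 times. Per coding length the fibril share in Otos cells was 24.4%. The pairs with r of at least 0.5 numbered 9, 6 without C1qb cells and 10 with a pseudocount of 10. No paired analysis was possible because the cells carry 1 group label.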
